A study of Mus musculus with 12 samples.

Results

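The genes described here are Jchain, Ighm, Iglv1 and Igkv8-30, 4 immunoglobulin genes of the antibody-secreting plasma cell, in mouse pancreas with and without Mist1 after caerulein or saline. All probe sets whose platform annotation gives one of these symbols alone were taken, 15 of the 22516 on the array, with 1 for Jchain, 11 for Ighm, 2 for Iglv1 and 1 for Igkv8-30. They stand for 4 of 12335 named genes, and 9 of the 15 passed the filter on low signal. The genes were chosen by their measured signals on these same arrays, so their levels and differences are given as a description, with no test.

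The samples were 3 Mist1KO pancreata after caerulein, 3 Mist1KO pancreata after saline, 3 wild type pancreata after caerulein and 3 wild type pancreata after saline, each on its own Affymetrix array. All came from males aged 2 to 4 months that received hourly injections over 4 hours, and RNA was taken from the total pancreas. The wild type mice are labelled C57BL6, and neither the strain of the Mist1KO mice nor the caerulein dose is given in the sources used here. Bhlha15, the gene of Mist1, ranged from 38.3 to 79.4 on the Mist1KO caerulein arrays and from 89.9 to 106.8 on the Mist1KO saline arrays. It ranged from 729.5 to 838.5 on the wild type caerulein arrays and from 1601.0 to 1624.3 on the wild type saline arrays.

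An antibody is built of heavy and light chains, each with a variable and a constant region that are joined by DNA rearrangement in the B cell lineage. Plasma cells, the end stage of that lineage, transcribe the rearranged genes at very high rates. The J chain joins IgM and dimeric IgA into polymers that the polymeric immunoglobulin receptor carries across epithelia. Mist1, a basic helix-loop-helix transcription factor, is made in plasma cells as well as in the enzyme-secreting acinar cells that fill most of the pancreas. Caerulein acts like the gut hormone cholecystokinin, which makes acinar cells secrete. In total pancreatic RNA, fewer cells of a type and less RNA per cell cannot be told apart.

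Jchain (probe set 1424305_at) encodes the J chain and lies on the minus strand of chromosome 5, from 88519809 to 88527897 in GRCm38.p6. Its signal was 446.6, 607.6 and 1150.2 on the Mist1KO caerulein arrays, and 202.1, 422.5 and 192.2 on the Mist1KO saline arrays. It was 91.0, 52.2 and 110.5 on the wild type caerulein arrays, and 913.7, 247.3 and 873.5 on the wild type saline arrays. All 3 wild type caerulein arrays lay below every other array, and all 3 Mist1KO caerulein arrays lay above every Mist1KO saline array. Wild type saline replicate 2 stood low in its group, at the level of the Mist1KO saline arrays.

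On the scale of log2(signal + 18.7), which understates differences of dim genes, Jchain was 6.04-fold lower in wild type after caerulein than after saline, a log2 difference of -2.59 ± 0.46 (SE, n = 3 per group). The log2 difference for caerulein against saline in Mist1KO was 1.35 ± 0.46, or 2.55-fold higher. Between genotypes, Jchain was 6.97-fold higher in Mist1KO than in wild type after caerulein and 2.21-fold lower in Mist1KO than in wild type after saline. The ranges of the saline groups overlapped. Without wild type saline replicate 2, the caerulein difference in wild type was -3.19 and the saline difference between genotypes -1.74.

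**Figure D1:**
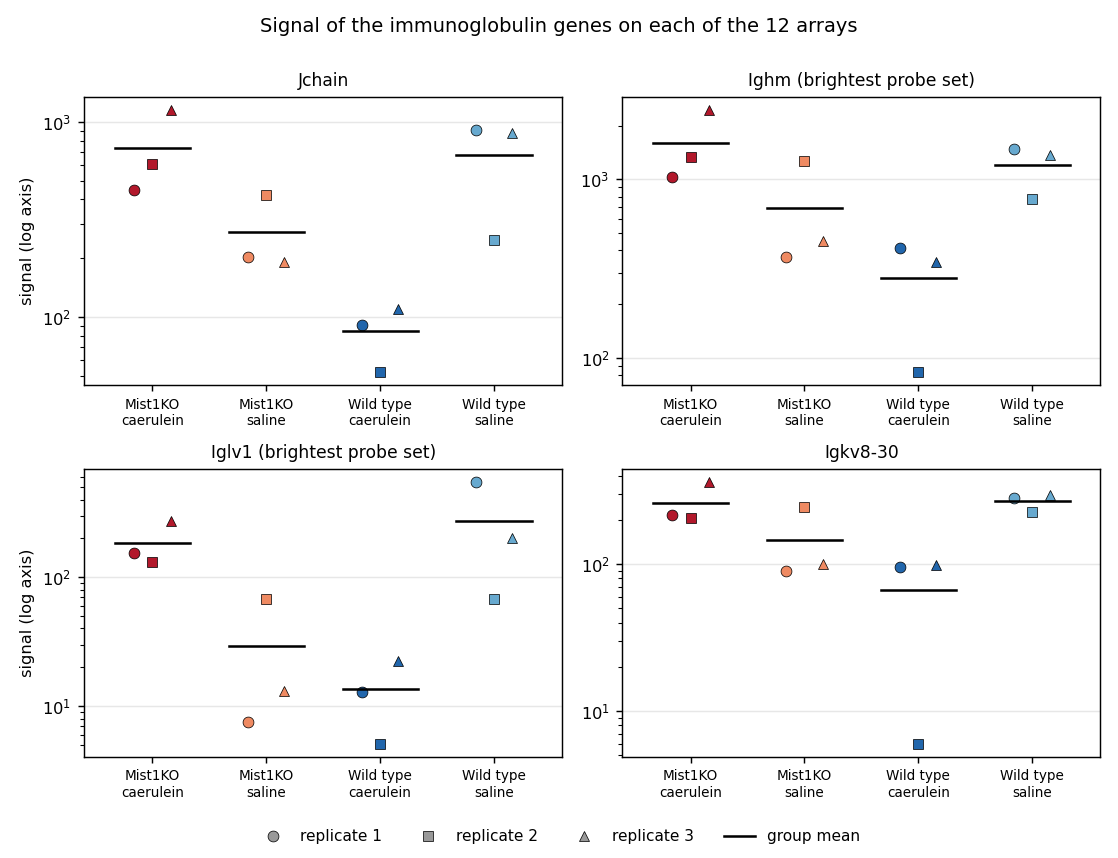
Signal (log axis) of Jchain, Ighm, Iglv1 and Igkv8-30 on each of the 12 arrays, with 1 symbol per replicate and a line at each group mean. In all 4 panels the wild type caerulein arrays have the lowest mean, and Mist1KO saline replicate 2 stands above the other arrays of its group.

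The promoter of Jchain is shown because E-boxes are the sequences that basic helix-loop-helix proteins such as Mist1 bind as a class. The sequence is the 250 bases before the annotated start of Jchain (RefSeq, GRCm38.p6, chr5:88527898-88528147, minus strand), printed 5′ to 3′ with each E-box (CANNTG, a motif that reads the same on both strands) in capitals.

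Jchain promoter: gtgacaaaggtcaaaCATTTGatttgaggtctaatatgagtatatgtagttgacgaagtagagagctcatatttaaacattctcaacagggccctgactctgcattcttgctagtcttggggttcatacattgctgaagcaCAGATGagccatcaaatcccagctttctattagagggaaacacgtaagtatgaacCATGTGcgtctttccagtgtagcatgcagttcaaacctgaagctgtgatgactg

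The 3 E-boxes were CATTTG at 235 to 230 bases before the start, CAGATG at 109 to 104 and CATGTG at 54 to 49. Of 32851 promoters of the same length, 66.2% held at least 1 E-box and 12.2% held at least 3, so such matches are frequent and are given as a description. The octamer of immunoglobulin promoters (ATTTGCAT, or ATGCAAAT on the other strand) was not found in this window, and 1.74% of all promoters held it. The E-box search was chosen after the signals had been seen.

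Ighm encodes the constant region of the mu heavy chain, the chain of IgM, and lies on chromosome 12 from 113418826 to 113422730 (GRCm38.p6). Its brightest probe set (1427351_s_at) gave 1029.4, 1327.6 and 2443.5 in Mist1KO after caerulein, against 368.0, 1266.8 and 451.3 in Mist1KO after saline. In wild type it gave 410.2, 83.4 and 345.9 after caerulein, against 1470.1, 774.1 and 1366.9 after saline. Every wild type caerulein array lay below every wild type saline array and below every Mist1KO caerulein array, while the 2 Mist1KO groups overlapped through replicate 2 of the saline group.

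The log2 difference of this probe set for caerulein against saline was 1.30 ± 0.53 in Mist1KO and -2.23 ± 0.53 in wild type (SE, n = 3 per group). Mist1KO was 6.02-fold higher than wild type after caerulein, and 1.91-fold lower than wild type after saline. Without wild type caerulein replicate 2, the caerulein difference in wild type was -1.58 and the caerulein-group difference between genotypes 1.94. The next brightest Ighm probe set (1427329_a_at) gave 516.7, 676.2 and 1390.6 in Mist1KO after caerulein, against 297.6, 682.4 and 348.2 in Mist1KO after saline. It gave 355.2, 96.0 and 234.8 in wild type after caerulein, against 934.0, 485.6 and 957.6 in wild type after saline. Both probe sets put the arrays of each group in nearly the same order.

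The other 9 Ighm probe sets did not share this pattern in full. The 4 that passed the filter (1427870_x_at, 1452535_at, 1425247_a_at and 1425385_a_at) had signals between 6.4 and 364.3, and their log2 differences for caerulein against saline lay between -0.77 and 0.44 in Mist1KO and between -0.96 and -0.48 in wild type. The remaining 5 were dim, with group means of at most 37.7. Probe sets whose names end in s_at or x_at may also read related sequences, and which Ighm transcripts each one reads could not be told from the table. The same holds for the variable segments below, whose near-identical copies the probe sets may not separate.

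Iglv1 is a variable segment of the lambda light chain locus, on chromosome 16 from 19085017 to 19085460 (GRCm38.p6). Its brighter probe set (1430523_s_at) gave 154.3, 131.3 and 271.5 in Mist1KO after caerulein, against 7.5, 67.5 and 13.2 in Mist1KO after saline. It gave 12.9, 5.1 and 22.4 in wild type after caerulein, against 551.8, 67.2 and 201.8 in wild type after saline. The caerulein group lay wholly above the saline group in Mist1KO and wholly below it in wild type. The log2 difference for caerulein against saline was 2.24 ± 0.58 in Mist1KO and -2.82 ± 0.58 in wild type (SE, n = 3 per group).

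Because several of these signals lie under the offset of 18.7, the Iglv1 differences depend on it: Mist1KO against wild type after caerulein was 2.64 with this offset, 1.86 with an offset of 50 and 3.41 with an offset of 5. The caerulein difference in wild type was -3.50 without wild type saline replicate 2 and -2.13 without wild type saline replicate 1. The other Iglv1 probe set (1427292_at) did not pass the filter, and its signal lay between 4.0 and 47.4 on the 12 arrays. In wild type it gave 47.4, 34.6 and 39.2 after caerulein, against 24.1, 26.0 and 5.7 after saline, opposite in direction to the brighter probe set.

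Igkv8-30 is a variable segment of the kappa light chain locus, on chromosome 6 from 70117061 to 70117617 (GRCm38.p6). Its probe set (1452463_x_at) gave 217.6, 206.9 and 365.0 in Mist1KO after caerulein, against 90.4, 246.6 and 100.9 in Mist1KO after saline. It gave 96.3, 6.0 and 98.9 in wild type after caerulein, against 281.8, 226.5 and 295.8 in wild type after saline. The wild type groups did not overlap, and the Mist1KO groups overlapped through saline replicate 2. The log2 difference for caerulein against saline was 0.85 ± 0.50 in Mist1KO and -2.04 ± 0.50 in wild type (SE, n = 3 per group). Without wild type caerulein replicate 2 the wild type difference was -1.29.

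A further 3 probe sets carry several kappa symbols, among them the kappa constant region Igkc and Igkv8-30, and were read only as a group. The brightest gave 1127.0, 1268.6 and 2548.1 in Mist1KO after caerulein, against 450.2, 1601.3 and 508.7 in Mist1KO after saline. It gave 626.7, 74.4 and 394.8 in wild type after caerulein, against 2119.0, 942.7 and 1792.1 in wild type after saline. All 3 had the order of group means seen for Jchain and Ighm, with Mist1KO caerulein first, then wild type saline, Mist1KO saline and wild type caerulein. Their log2 differences for caerulein against saline lay between 1.01 and 1.13 in Mist1KO and between -2.41 and -1.94 in wild type. Of all 13 probe sets with several immunoglobulin symbols, 8 passed the filter, these 3 included. The rest of the 8 did not share the pattern, with caerulein differences between -0.09 and 0.25 in Mist1KO and between -0.58 and 0.18 in wild type. Those with Ighm among their symbols were lower in Mist1KO than in wild type after caerulein, with log2 differences of -0.54 and -0.49.

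**Figure D2:**
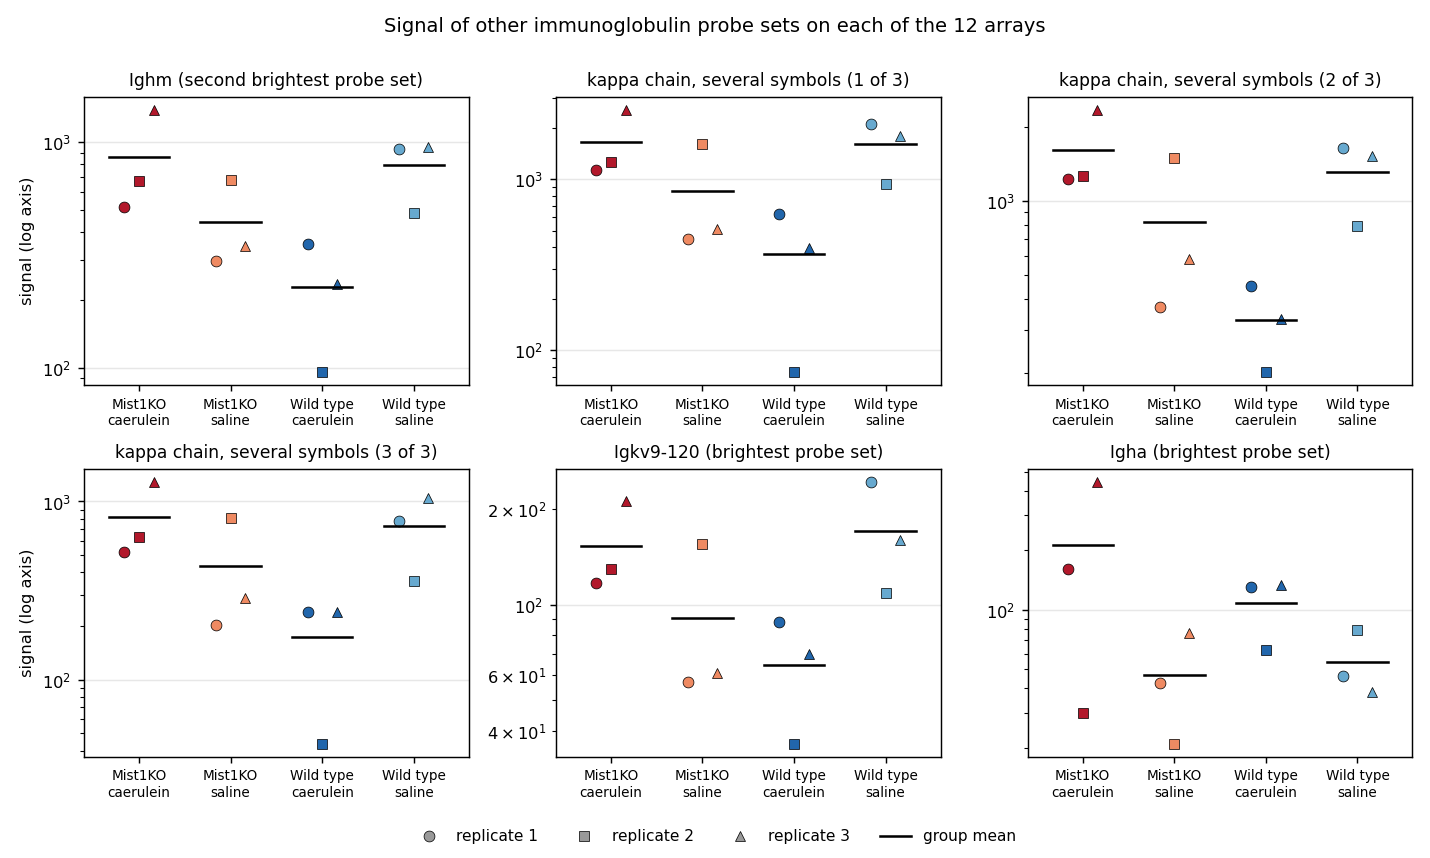
Signal (log axis) on each of the 12 arrays for the second brightest Ighm probe set, the 3 kappa chain probe sets with several symbols, Igkv9-120 and Igha, with 1 symbol per replicate and a line at each group mean. The kappa probe sets have their lowest values on wild type caerulein replicate 2, while Igha is high on replicates 1 and 3 of Mist1KO after caerulein.

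For Jchain and the brightest Ighm probe set, the means ran in the order Mist1KO caerulein, wild type saline, Mist1KO saline and wild type caerulein. For the brighter Iglv1 probe set, which stands for Iglv1 here, and for Igkv8-30 the first 2 places were exchanged. The ranges of Mist1KO caerulein and wild type saline overlapped for all 4 genes, as did those of wild type saline and Mist1KO saline. Mist1KO saline and wild type caerulein overlapped for Ighm, Iglv1 and Igkv8-30 but not for Jchain.

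Counting all 15 probe sets, the 2 groups compared did not overlap in 9 for caerulein against saline in wild type, 8 lower and 1 higher, where 27.9% of all 22452 probe sets outside the controls did not overlap. For Mist1KO against wild type after caerulein the count was 6 of 15, 5 higher and 1 lower, against 32.1% of all probe sets. For caerulein against saline in Mist1KO it was 3 of 15, against 35.7%, and for Mist1KO against wild type after saline it was 2 of 15, against 28.4%. The members were picked with these contrasts in view, and nothing is read from their counts.

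**Figure D3:**
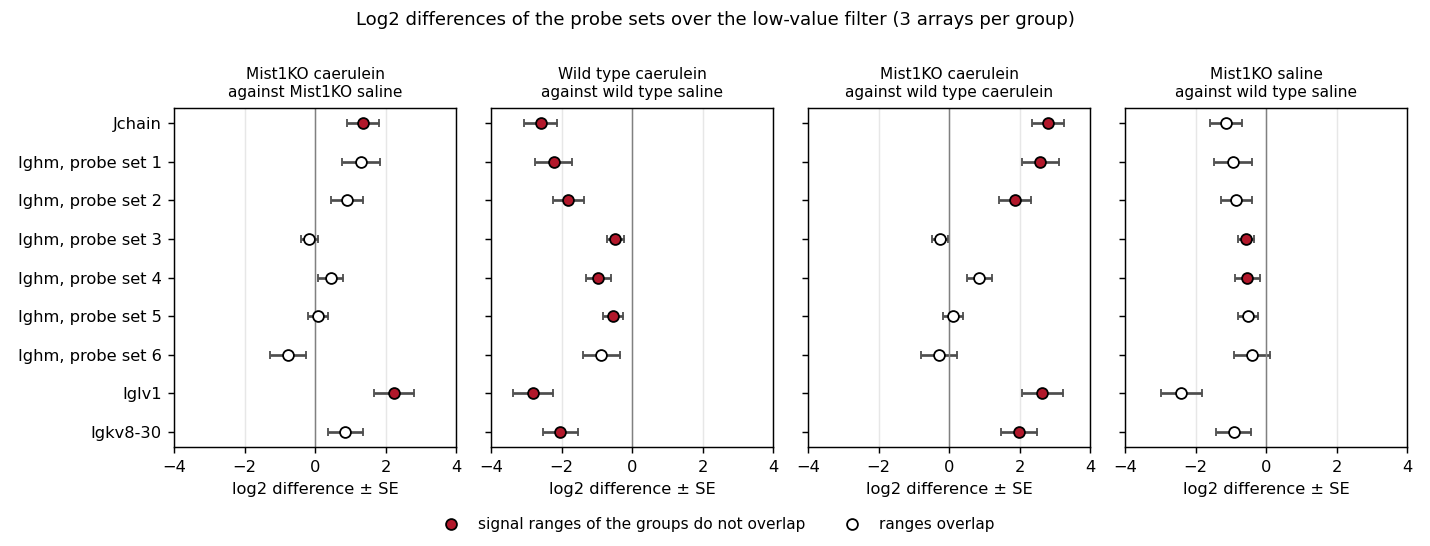
Log2 differences with their SE (n = 3 per group) for the 9 probe sets that passed the low-signal filter, in 4 comparisons of groups, with the Ighm probe sets numbered from the brightest. Filled points mark comparisons in which the signal ranges of the 2 groups did not overlap: for caerulein against saline, Jchain and Iglv1 are filled in both genotypes, and the 2 brightest Ighm probe sets and Igkv8-30 are filled in wild type and open in Mist1KO.

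The 4 genes, each read by its brightest probe set, also moved together between arrays of the same group. Replicate 3 was highest in Mist1KO after caerulein, replicate 2 was highest in Mist1KO after saline, and replicate 2 was lowest in both wild type groups for all 4 genes. Over the 12 arrays, the deviations from the group means of log2 signal correlated between the genes with Pearson's r of 0.55 to 0.95 and Spearman's rho of 0.69 to 0.92 in the 6 pairs. The highest was that of Ighm with Igkv8-30, and the arrays behind each pair are the same. The spread was wide, since within wild type after caerulein the highest Igkv8-30 signal was 16.5 times the lowest, and within Mist1KO after saline the highest Iglv1 signal was 9.0 times the lowest.

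**Figure D4:**
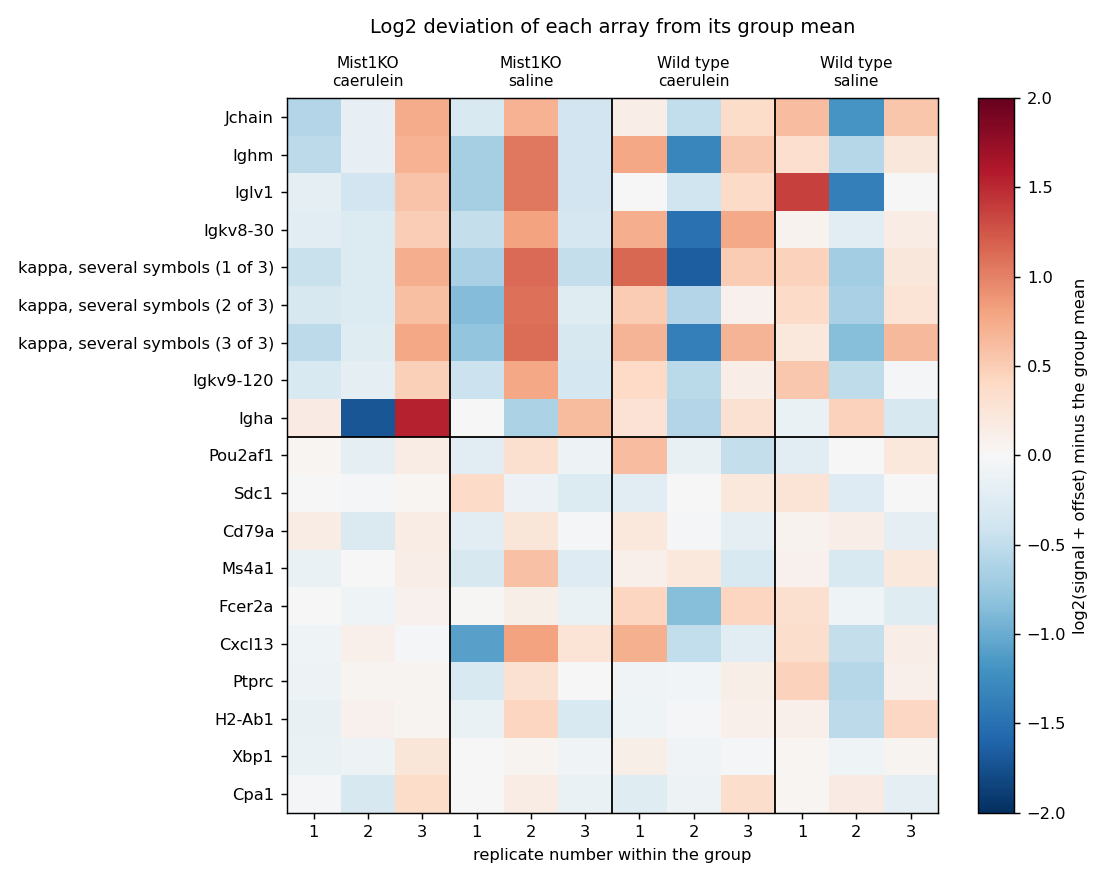
Deviation of log2(signal + 18.7) from the group mean (colour) for immunoglobulin probe sets above the line and for genes of other lists below it, on the 12 arrays. Mist1KO saline replicate 2 is high and wild type caerulein replicate 2 is low for Ighm, Igkv8-30 and the kappa probe sets, and Sdc1 and Xbp1 stay close to their group means.

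Other immunoglobulin genes were mostly dim. There were 23 further probe sets with 1 immunoglobulin symbol, and 7 passed the filter. For caerulein against saline, 1 of the 7 was called in Mist1KO, as higher, and 1 in wild type, as lower, where 24.0% and 18.9% of all 15716 probe sets tested passed the test in those comparisons in either direction (limma, adjusted p under 0.05). The one called in Mist1KO was an Igha probe set that passed the filter only through its Mist1KO caerulein arrays, so nothing is read from that count. It is also among the 7, with other Igha probe sets, so nothing is read from their medians and further counts either. The median log2 difference of the 7 was 1.06 in Mist1KO, where the median of all probe sets was -0.13, and -0.20 in wild type, where it was -0.14. For Mist1KO against wild type, none of the 7 passed after caerulein, against 20.2% of all probe sets, and none passed after saline, against 12.6%. At an unadjusted limma p under 0.05 the counts were 4 and 1.

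Igha, the constant region of the alpha heavy chain of IgA, had 3 probe sets over the filter. One of them (1425763_x_at) gave 149.6, 19.6 and 378.2 in Mist1KO after caerulein, against 19.8, 7.6 and 15.5 in Mist1KO after saline. It gave 27.2, 18.6 and 24.2 in wild type after caerulein, against 41.8, 68.0 and 28.4 in wild type after saline. The high values were those of replicates 1 and 3 of Mist1KO after caerulein, and replicate 2 lay among the saline arrays. Its mean was 182.5 ± 182 in Mist1KO after caerulein and 14.3 ± 6.19 in Mist1KO after saline (SD, n = 3 each). Without Mist1KO caerulein replicate 1 or replicate 3 it no longer passed the filter on low signal, so the difference is given with no test.

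The other 2 Igha probe sets were brighter, with log2 differences of 1.37 each for caerulein in Mist1KO. The brightest (1421653_a_at) averaged 211.7 ± 212 in Mist1KO after caerulein and 46.8 ± 28.0 in Mist1KO after saline (SD, n = 3 each), so its spread was as large as its mean. In wild type it gave 130.1, 62.5 and 132.8 after caerulein, against 46.4, 79.4 and 38.2 after saline, so its mean was not lower after caerulein there. The other (1429381_x_at) averaged 57.0 ± 24.4 in wild type after caerulein and 54.9 ± 28.7 in wild type after saline (SD, n = 3 each).

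Igkv9-120 is another kappa variable segment. Its brightest probe set gave 116.7, 129.2 and 212.3 in Mist1KO after caerulein, against 56.9, 155.1 and 61.1 in Mist1KO after saline. It gave 87.9, 36.5 and 69.8 in wild type after caerulein, against 243.4, 108.5 and 159.5 in wild type after saline. It fell with caerulein in wild type by 1.17 ± 0.36 on the log2 scale (limma adjusted p = 0.0364), and in Mist1KO the difference was 0.71 ± 0.36 (adjusted p = 0.180). The wild type call was lost in 9 of 19 alternatives, with adjusted p up to 0.138 without wild type saline replicate 1. The test of the difference between the genotypes in the response to caerulein, the interaction, gave 1.88 ± 0.51 (adjusted p = 0.0654). A second Igkv9-120 probe set over the filter (1452536_s_at) did not share the fall in wild type. It averaged 49.5 ± 51.1 there after caerulein and 50.7 ± 26.2 after saline (SD, n = 3 each). In Mist1KO it averaged 72.3 ± 22.5 after caerulein and 28.1 ± 25.6 after saline. None of the 7 probe sets passed the interaction test, against 3.30% of all probe sets. At an unadjusted p under 0.05 there were 3, a count with no share of all probe sets beside it, so nothing is read from it.

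Of 12 plasma cell genes, 10 were measured and 6 passed the filter. With caerulein, 2 rose and none fell in Mist1KO, and 2 rose and 1 fell in wild type, where 24.0% and 18.9% of all probe sets were called. Mist1KO against wild type gave 2 higher and none lower after caerulein, against 20.2% of all probe sets, and 1 higher and none lower after saline, against 12.6%. Sdc1, which encodes the plasma cell surface proteoglycan syndecan-1 and is also made by epithelia, was higher in all 4. Its signals were 2312.3, 2270.8 and 2371.7 in Mist1KO after caerulein, against 286.7, 197.7 and 175.7 in Mist1KO after saline. The wild type arrays gave 417.1, 495.3 and 570.5 after caerulein, against 123.6, 79.8 and 98.8 after saline. It rose with caerulein by 3.32 in Mist1KO (limma adjusted p = 8.73e-08) and by 2.11 in wild type (adjusted p = 3.20e-06). It is on this list as a marker, and its rise in both genotypes is opposite in wild type to the lower signals of the 4 immunoglobulin genes. The part of epithelial cells in it was not tested.

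Pou2af1, a coactivator that works with octamer-binding factors on immunoglobulin genes in B and plasma cells, gave 97.7, 81.4 and 107.8 in Mist1KO after caerulein, against 63.2, 29.5 and 19.6 on the wild type caerulein arrays. The Mist1KO level was higher by 1.10 ± 0.28 (limma adjusted p = 0.0141), and the call was lost only without wild type caerulein replicate 3 (adjusted p = 0.0579) among 19 alternatives. Its caerulein differences were 0.57 in Mist1KO (adjusted p = 0.169) and -0.82 in wild type (adjusted p = 0.0560), and its interaction was 1.39 ± 0.40 (adjusted p = 0.0783). Prdm1, the gene of the transcription factor Blimp-1 that drives plasma cell differentiation, gave 60.7, 70.9 and 29.9 in wild type after caerulein, against 114.2, 111.8 and 99.6 in wild type after saline, and fell by 0.86 ± 0.26 (adjusted p = 0.0331). That call was lost in 7 of 19 alternatives, with adjusted p up to 0.137 without wild type caerulein replicate 3.

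Ell2, an elongation factor that favours the secreted form of the heavy chain transcript, rose with caerulein by 1.38 ± 0.30 in Mist1KO (limma adjusted p = 0.00424) and by 1.19 ± 0.30 in wild type (adjusted p = 0.0135). The wild type call was lost without wild type caerulein replicate 3 (adjusted p = 0.0640) or wild type saline replicate 3 (adjusted p = 0.0552). Irf4, Tnfrsf17, Tnfrsf13b and Slamf7, a transcription factor and 3 surface receptors of plasma cells, lay under the filter, with signals of at most 60.0. The plasma cell genes Mzb1 and Cd38 were not analysed here.

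Of 22 B cell genes, 18 were measured and 15 passed the filter. Caerulein against saline gave 1 higher and 1 lower in Mist1KO, and none higher and 2 lower in wild type, shares no larger than the 24.0% and 18.9% of all probe sets. Mist1KO against wild type gave 2 lower after caerulein and 2 lower after saline, with none higher in either, where 20.2% and 12.6% of all probe sets were called. At an unadjusted limma p under 0.05 there were 3 after caerulein and 9 after saline. The share of all probe sets at that threshold is not given, so nothing is read from these counts. After saline, 14 of the 15 were lower in Mist1KO, with a median log2 difference of -0.51, against -0.05 for all probe sets. After caerulein, 10 of the 15 were lower, with a median of -0.19, against -0.05. The shares of all probe sets that were lower are not given, so the counts by sign are description only. The median log2 difference of the 15 was -0.05 for caerulein in Mist1KO and -0.36 in wild type. The summed signal of the measured genes ranged from 1086.7 to 1357.6 on the Mist1KO caerulein arrays and from 1016.8 to 1580.7 on the Mist1KO saline arrays. It ranged from 1386.2 to 1510.9 on the wild type caerulein arrays and from 1737.3 to 2003.1 on the wild type saline arrays. Its part in the immunoglobulin differences was not tested.

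Cd79a, a signalling subunit of the B cell receptor, gave 130.8, 108.6 and 94.0 in wild type after caerulein, against 198.3, 207.8 and 160.8 in wild type after saline. It fell there by 0.68 ± 0.19 on the log2 scale (limma adjusted p = 0.0217), a call lost in 4 of 19 alternatives, with adjusted p up to 0.0854 without wild type caerulein replicate 3. In Mist1KO it gave 156.4, 110.2 and 155.3 after caerulein, against 106.7, 152.6 and 122.9 after saline, and its difference was 0.12 (adjusted p = 0.690). Ms4a1, the gene of CD20, had differences of 0.56 in Mist1KO (adjusted p = 0.126) and -0.47 in wild type (adjusted p = 0.207). Cd79b lay under the filter, at 4.8 to 110.3.

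Fcer2a, the low-affinity IgE receptor CD23 of B cells, gave 85.9, 78.8 and 91.3 in Mist1KO after caerulein, against 22.9, 25.6 and 18.4 in Mist1KO after saline, and rose by 1.35 ± 0.31 (limma adjusted p = 0.00588). In wild type it gave 137.4, 45.5 and 138.9 after caerulein, against 112.1, 79.8 and 70.2 after saline, a difference of 0.15 (adjusted p = 0.764). Cd72, a B cell coreceptor, fell with caerulein in both genotypes, by 1.15 ± 0.31 in Mist1KO (adjusted p = 0.0156) and by 1.26 ± 0.31 in wild type (adjusted p = 0.0121). The Cd72 calls were lost in 3 and in 1 of 19 alternatives, with adjusted p up to 0.0784 without Mist1KO saline replicate 3 and of 0.0523 without wild type saline replicate 1.

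Of 13 genes of lymph nodes and lymphoid tissue, 9 were measured and 4 passed the filter. Caerulein gave 1 higher and none lower in Mist1KO, and none higher and 1 lower in wild type, and 2 were higher in Mist1KO than in wild type after caerulein. With 24.0%, 18.9% and 20.2% of all probe sets called in those 3 comparisons, 4 genes are too few to set apart from them. Cxcl13, the chemokine that draws B cells into follicles, gave 475.4, 545.4 and 496.1 in Mist1KO after caerulein, against 325.7, 131.0 and 160.7 on the wild type caerulein arrays. The Mist1KO level was higher by 1.32 ± 0.40 (limma adjusted p = 0.0321), and Cxcl13 fell with caerulein in wild type by 1.26 ± 0.40 (adjusted p = 0.0414). These calls were lost in 9 and in 12 of 19 alternatives, with adjusted p up to 0.120 and 0.143 without wild type caerulein replicate 2. In Mist1KO the caerulein difference of Cxcl13 was 0.65 (adjusted p = 0.275). Lyve1, a receptor of lymphatic endothelium, was higher by 1.20 ± 0.27 in Mist1KO than in wild type after caerulein (adjusted p = 0.00678). Cxcl13 and Lyve1 each had 1 further tested probe set, which was not called. The chemokines Ccl21a and Ccl19 were not analysed here.

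Of 12 pan-leukocyte genes, none passed with caerulein in either genotype by limma, where 24.0% of all probe sets were called in Mist1KO and 18.9% in wild type. At an unadjusted p under 0.05 there were 0 in Mist1KO and 3 in wild type, where 9 of the 12 were lower. Shares of all probe sets at an unadjusted p or by sign are not given. Nothing is read from these counts or from those like them below. Ptprc, the gene of the leukocyte antigen CD45, had differences of 0.22 in Mist1KO (adjusted p = 0.571) and -0.56 in wild type (adjusted p = 0.139). None of 8 MHC class II genes passed either, with 1 and 1 at an unadjusted p under 0.05, and Cd74, the invariant chain, had differences of 0.00 in Mist1KO and -0.41 in wild type. Of 11 T and NK cell genes, none passed with caerulein in either genotype, with 1 and 1 at an unadjusted p under 0.05. For Mist1KO against wild type, 1 T and NK cell gene, Zap70, was lower after caerulein, against 20.2% of all probe sets called. After saline, 1 was higher and 3 were lower, against 12.6%. The pan-leukocyte signals summed to between 1452.1 and 1883.5 on the Mist1KO caerulein arrays and to between 1325.1 and 1857.5 on the Mist1KO saline arrays. The sums were between 1474.6 and 1645.0 on the wild type caerulein arrays and between 1612.4 and 2359.9 on the wild type saline arrays, and their part in the immunoglobulin differences was not tested. The median log2 difference of the pan-leukocyte genes for caerulein was 0.11 in Mist1KO and -0.32 in wild type. For Mist1KO against wild type after caerulein it was 0.28, against -0.05 for all probe sets, and 9 of the 12 were higher. There 1 was called higher and 1 lower, against 20.2% of all probe sets, and 5 had an unadjusted limma p under 0.05. After saline 1 was called higher and 1 lower, against 12.6%. None passed the interaction test, against 3.30%, and 4 had an unadjusted p under 0.05.

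Among 10 receptors and carriers of immunoglobulins, caerulein gave 1 lower in Mist1KO and 3 lower in wild type, with none higher, where 24.0% and 18.9% of all probe sets were called. Fcer1g, the signalling chain shared by several Fc receptors, fell in wild type by 1.22 ± 0.32 (limma adjusted p = 0.0157), and the call was lost without wild type caerulein replicate 2 (adjusted p = 0.0547) or wild type saline replicate 3 (adjusted p = 0.0703). Fcgrt, the neonatal Fc receptor that spares IgG from degradation, fell by 0.67 ± 0.14 in Mist1KO (adjusted p = 0.00271) and by 0.51 ± 0.14 in wild type (adjusted p = 0.0173), where the call was lost in 4 of 19 alternatives, with adjusted p up to 0.0599 without wild type caerulein replicate 2. Pigr, the polymeric immunoglobulin receptor that binds the J chain polymer, had signals between 42.9 and 93.2 on the 12 arrays and passed in no comparison. Of 6 survival and homing factors of plasma cells, 1 was called higher and 1 lower in each genotype, against the same 24.0% and 18.9%. The higher one was the brightest probe set of Il6st, the signalling chain of the interleukin 6 receptor, by 0.93 in Mist1KO (adjusted p = 0.00193) and by 0.66 in wild type (adjusted p = 0.0206). The wild type call was lost in 3 of 19 alternatives, with adjusted p up to 0.0801 without wild type saline replicate 2, and the 2 other tested Il6st probe sets were called in neither genotype.

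**Figure D5:**
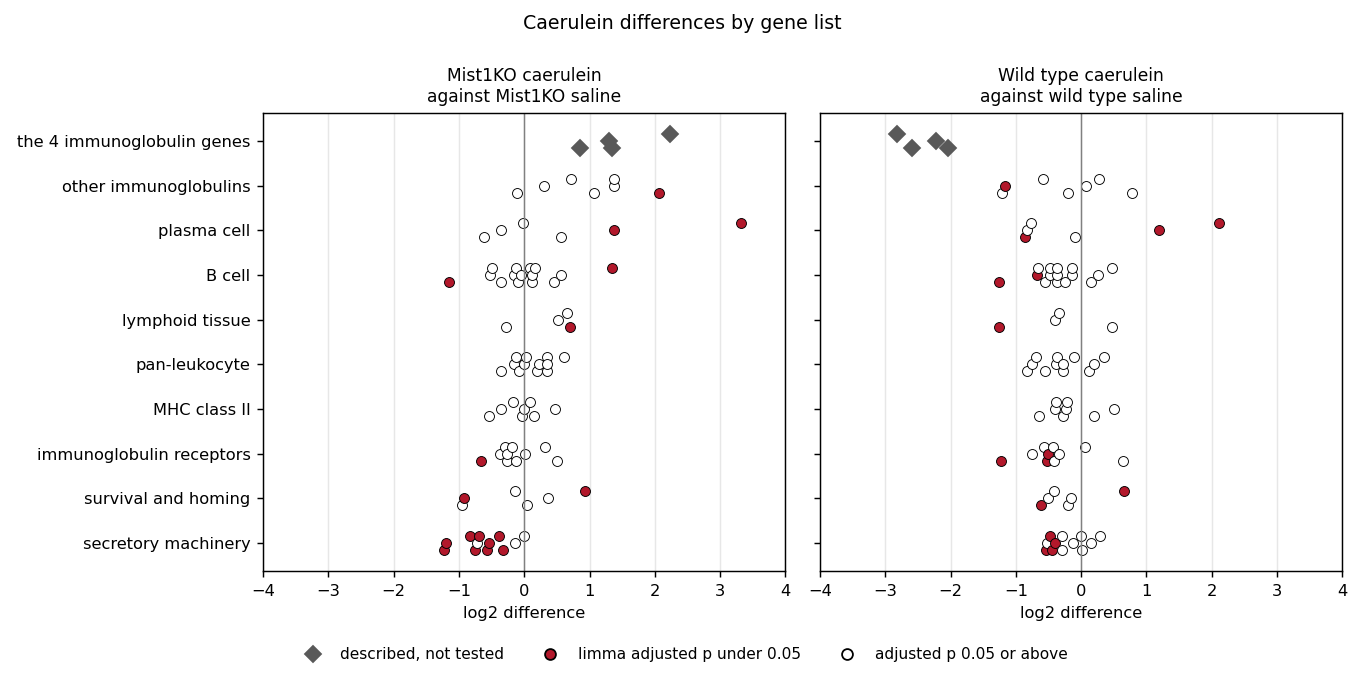
Log2 differences for caerulein against saline in Mist1KO (left) and in wild type (right), with 1 point per tested gene or probe set in each list. Filled circles passed the limma test, and diamonds are the 4 immunoglobulin genes, which were not tested: all 4 lie right of 0 in Mist1KO and left of 0 in wild type, while no pan-leukocyte gene is filled on either side.

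Of 12 genes of the secretory machinery that plasma cells share with acinar cells, 9 fell and none rose with caerulein in Mist1KO, and 4 fell and none rose in wild type, where 24.0% and 18.9% of all probe sets were called. With each array centred on its median, 7 were lower in Mist1KO and 0 in wild type. Xbp1, the transcription factor of the secretory program in both cell types, had differences of 0.00 in Mist1KO (limma adjusted p = 0.999) and 0.01 in wild type (adjusted p = 0.964), with signals between 6391.8 and 8324.6 on the 12 arrays. Creld2, a chaperone-like protein of the endoplasmic reticulum, fell by 1.19 ± 0.15 in Mist1KO (adjusted p = 5.75e-05), and its difference in wild type was 0.29 (adjusted p = 0.190). The median of the 12 genes was -0.63 in Mist1KO and -0.29 in wild type, against -0.13 and -0.14 for all probe sets.

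Of 8 acinar genes tested, 7 were called lower with caerulein in Mist1KO and 1 in wild type, where 24.0% and 18.9% of all probe sets were called. The Mist1KO count was 2 with quantile normalization and 3 with median centring. Cpa1, the gene of carboxypeptidase A1, gave 8627.6, 7158.7 and 11430.1 in Mist1KO after caerulein, against 14122.9, 15662.4 and 12942.6 in Mist1KO after saline. The acinar signals summed to between 51844.3 and 79239.8 on the Mist1KO caerulein arrays and to between 90921.1 and 107031.7 on the Mist1KO saline arrays. On the wild type caerulein arrays they summed to between 104644.5 and 141820.6, and on the wild type saline arrays to between 121912.9 and 157860.6. The call of Cpa1 for caerulein in Mist1KO (-0.67 ± 0.19, limma adjusted p = 0.0197) was lost in 7 of 19 alternatives, with adjusted p up to 0.356 with quantile normalization. Red blood cell genes had 2 members over the filter and none passed in any comparison, with 0 at an unadjusted p under 0.05. The part of these lists in the immunoglobulin differences was not tested.

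Among 9473 named genes outside the immunoglobulins, those most like the 4 genes were found by Pearson's r of log2 signal over the 12 arrays, taking the first 6 for each. For Jchain they were Pole3, Saa3, Lyz1, H2-Ab1, Arpp19 and Ptprc, with r from 0.93 to 0.88. For Iglv1 they were Srgn, Pole3, H2-Ab1, Ptprc, Arpp19 and Lyz1, with r from 0.90 to 0.83. Ptprc is the CD45 gene, H2-Ab1 an MHC class II gene and Lyz1 a lysozyme gene. For Ighm they were Arpp19, Pfkfb2, Cxcl13, Ccl11, Slc39a8 and Casp8, with r from 0.87 to 0.85. For Igkv8-30 they were Pfkfb2, Slc5a3, Acvr1c, Cxcl1, Tas1r2 and Arih1, with r from 0.92 to 0.84. Arpp19, a regulator of mitotic phosphatase, was listed for 3 of the 4 genes.

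These correlations include the differences between groups, and the arrays are the same for every gene. By deviations from the group means, which leave the groups out, the first gene was Klhl42 for Jchain (r = 0.94), Mgst1 for Ighm (r = 0.95), H2az1 for Iglv1 (r = 0.96) and Ppp1r12c for Igkv8-30 (r = 0.96). Ptprc again stood among the first 6 for Iglv1, with r of 0.93. Of the 7 tested probe sets of other immunoglobulins, the brightest of Igkv9-120 followed the 4 genes most closely, with r of 0.81 to 0.93. The second tested Igkv9-120 probe set followed them less closely. Sdc1 was in none of these lists, and the median r of the 6 plasma cell genes with the 4 immunoglobulin genes lay between -0.15 and 0.11.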

How the data were processed

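The authors deposited linear signal intensity values, 1 per probe set and array, for 12 Affymetrix arrays of 3 pancreata per group. Their 2% trimmed means lay between 151.08 and 151.37 and their medians between 70.6 and 90.15, so the deposited scaling was kept. Which software summarised the probes, to what target it scaled, and any detection calls are not stated in the labels, so signal over background is unknown. Per the labels' protocols, about 10 µg of total RNA was labelled per array. The number of arrays limits the precision. The design text calls the samples biological replicates, and no 2 arrays held identical values.

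Before log2, 18.7 was added to every signal, which is the 20th percentile of the table. The 64 control probe sets and probe sets at or below the 30th percentile of mean log2 signal were left out, which left 15716. Group means were estimated by limma (version 3.58.1, under R 4.3.3) with lmFit and a trended eBayes, leaving 8 residual degrees of freedom. For 4 comparisons and the interaction, two-sided p-values were adjusted over the 15716 by Benjamini-Hochberg and called under 0.05. The fit was tested on simulated data. Figures used matplotlib 3.10.9 in Python 3.11.15.

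The 4 genes and the 12 gene lists (other immunoglobulins, plasma cells, secretory machinery, B cells, T and NK cells, lymphoid tissue, leukocytes, MHC class II, immunoglobulin receptors, plasma cell survival and homing, acinar cells, red blood cells) were chosen with earlier results of these data known. A listed gene is represented by its probe set with the highest mean, and other immunoglobulins by every probe set. Named were fixed defining markers, up to 3 further genes per list and up to 6 other immunoglobulin genes per comparison, those with the largest difference past the threshold. For each of the 4 genes, the 6 most like it by log2 signal were named, and the first by deviations from the group means. Any gene given outside that rule was chosen after their values were seen. Gene names come from the platform annotation and positions from RefSeq. Of 19 immunoglobulin genes, Jchain included, only Jchain had a promoter sequence. Alternatives were quantile normalization, median centring, offsets of 50 and 5, no filter, no intensity trend, a replicate block and each of the 12 arrays left out.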

Additional observations from a re-analysis of the deposited data

Results flagged for a closer look

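For Jchain, every caerulein array lay above every saline array in Mist1KO and below every saline array in wild type, and the difference between the 2 log2 differences was 3.94. This difference was not tested, since the gene was chosen by these values. The brighter Iglv1 probe set showed the same opposite movement on all arrays, with a difference of 5.05 that was not tested either. With an offset of 50 that value was 3.65, and with an offset of 5 it was 6.41. The dim Iglv1 probe set, under the filter, was higher after caerulein in wild type, not lower.

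Sdc1 differed between genotypes in its response to caerulein by 1.21 on the log2 scale (limma interaction, adjusted p = 0.0205), rising in both and more in Mist1KO. The call was lost in 4 of 19 alternatives, with adjusted p up to 0.0588 without Mist1KO saline replicate 3. Creld2 differed by -1.49 (adjusted p = 0.00317), a call that held in all 19 alternatives. Edem1, which marks misfolded proteins of the endoplasmic reticulum for disposal, differed by -0.84 (adjusted p = 0.0330), a call lost in 11 of 19 alternatives.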

How the results depend on the processing

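The log2 differences of Jchain, Ighm, Iglv1 and Igkv8-30, by the brightest probe set of each, kept their sign in all 17 alternatives run for each. For a comparison of groups, leaving out an array of a group outside it, or adding the replicate block, cannot change the difference. The genes were also chosen by these values, so nothing is read from the kept signs. The offset moved Iglv1 and Igkv8-30. With offsets of 50 and 5, Mist1KO against wild type after caerulein was 1.86 and 3.41 for Iglv1 and 1.52 and 2.41 for Igkv8-30, and the interaction was 3.65 and 6.41 for Iglv1 and 2.29 and 3.40 for Igkv8-30.

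Of the other immunoglobulin probe sets, 0 in place of 1 passed for caerulein in wild type with quantile normalization, median centring, no filter, no intensity trend or the replicate block. For caerulein in Mist1KO, 2 in place of 1 passed with quantile normalization, median centring or an offset of 50. For Mist1KO against wild type after caerulein, 1, 3 and 1 in place of 0 passed with those 3 settings in the same order. For Mist1KO against wild type after saline, 2 plasma cell genes in place of 1 passed with quantile normalization, and 1 B cell gene in place of 2 passed with quantile normalization, median centring or no filter. In a check chosen after seeing the data, quantile normalization left 2 and median centring 3 of 7 acinar calls for caerulein in Mist1KO, and median centring left 0 of 1 acinar and 0 of 4 secretory calls in wild type. The causes were not tested. The 18 correlations of same-numbered arrays lay between -0.10 and 0.05, so no shared deviation of same-numbered arrays was seen. These correlations cannot tell whether such arrays were matched or handled together.

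With single arrays left out, the other immunoglobulin count ranged from 0 to 3 for caerulein in Mist1KO, 0 to 2 for caerulein in wild type, 0 to 2 and 0 to 1 between genotypes after caerulein and after saline, and 0 to 1 for the interaction. The plasma cell count ranged from 1 to 4 for caerulein in wild type, and from 1 to 3 and 1 to 2 between genotypes after caerulein and after saline. The B cell count ranged from 1 to 3 for caerulein in Mist1KO, 0 to 2 for caerulein in wild type, and 1 to 2 and 1 to 3 between genotypes after caerulein and after saline. With 1 mismatch allowed, 18.6% of promoters in place of 1.74% held the octamer, and that of Jchain did not. Precision is limited by 3 arrays per group, and dim signals such as those of Iglv1 under the offset have little weight.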
